A study of Homo sapiens with 6 samples.

Results

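The AP-1 family was examined as 7 genes, FOS, FOSB, FOSL1, FOSL2, JUN, JUNB and JUND, found by gene name among the 39293 genes of the deposited count table. The RNA was from SW480, an epithelial line derived from a colorectal carcinoma, and was sequenced after poly(A) selection. In 3 wells the cells were exposed for 4 h to 20 µg/mL dihydroartemisinin (DHA), to which artemisinin antimalarials are converted in the body, and in 3 control wells for 4 h to 0.1% DMSO. Whether the DHA wells also held DMSO is not in the labels, and nothing says that the wells were separate cultures, so p-values measure the spread between wells only. The comparison asks how the paralogs differed in basal level and in response to the compound.

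AP-1 is a transcription factor made of paired basic leucine zipper proteins. JUN proteins pair with each other or with FOS proteins, FOS proteins need a JUN partner, and the pairs bind the TPA response element and, less often, the related cyclic AMP response element. FOS, FOSB, JUN and JUNB are immediate early genes, which growth factors and stress induce through MAP kinases without new protein synthesis. FOSL1 and FOSL2 follow more slowly, and JUND is present in most resting cells.

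The members differ in gene structure. All 3 JUN genes have 1 exon, as have 5.89% of coding genes in GENCODE release 29, while each of the 4 FOS genes has 4 exons in its longest coding transcript. The GC content of the longest transcript ran from 52.6% in FOS and 53.3% in FOSL2 through 56.7% in JUN, 57.7% in FOSB, 60.04% in FOSL1 and 64.9% in JUNB to 69.7% in JUND, against a median of 49.1% over coding genes. FOSB (ENSG00000125740), JUNB (ENSG00000171223) and JUND (ENSG00000130522) lie on chromosome 19, at 45467995 to 45475179, 12791496 to 12793315 and 18279760 to 18281622. These are the deposited coordinates, which match GENCODE 29 on GRCh38. FOS (ENSG00000170345) lies on chromosome 14 (75278774 to 75282230), JUN (ENSG00000177606) on chromosome 1 (58780788 to 58784327), FOSL1 (ENSG00000175592) on chromosome 11 (65892049 to 65900573) and FOSL2 (ENSG00000075426) on chromosome 2 (28392448 to 28417312). The pentamer ATTTA, the core of the AU-rich elements that mark short-lived transcripts, occurs 5 times in the 806 bases of the FOS 3′ untranslated region and 3 times in the 1287 bases of JUN. It occurs 9 times in the 4864 bases of FOSL2, 3 times in 2166 bases of FOSB, 2 times in 500 bases of JUNB, and 1 time each in FOSL1 and JUND. Across 19046 coding genes 67.0% hold at least 1 copy, with a median of 2 in a median length of 1044 bases.

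Promoter sequence was available in the RefSeq table (GRCh38.p14) for 6 members, FOSL1 not being among them, as 250 bases before and 50 after the RefSeq start. All 6 windows hold the half-site TGACG of the cyclic AMP response element on at least 1 strand, as do 24.6% of 35116 promoters of that length. The half-site is printed for FOS, FOSB, FOSL2, JUNB and JUND because, of 8 patterns searched, it is the one that all 6 windows hold, and in JUND the capitals mark the complete element that contains it. For JUN the capitals mark another element, TGACATCA, which resembles the TPA response element, and the JUN half-site lies outside the bases shown. Each stretch is 30 bases read in the direction of the gene.
FOS, half-site 64 bases before the start, chr14:75278753-75278782, plus strand: ggttgagcccgTGACGtttacactcattca
FOSB, half-site 60 bases before the start, chr19:45467925-45467954, plus strand: caaggggcgggTGACGtaagcaggggggcg
FOSL2, half-site 66 bases before the start, chr2:28392781-28392810, plus strand: gagtctggggtTGACGtgagtgaatccaca
JUN, TPA-like element 67 bases before the start, chr1:58784096-58784125, minus strand: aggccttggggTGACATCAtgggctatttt
JUNB, half-site 137 bases before the start, chr19:12791338-12791367, plus strand: cttcctgacagTGACGcgagccgcctcctc
JUND, complete element 200 bases before the start, chr19:18281804-18281833, minus strand: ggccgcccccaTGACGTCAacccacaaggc

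In FOS, FOSB and FOSL2 the half-site shown starts between 60 and 66 bases before the RefSeq start. The complete palindrome TGACGTCA, which contains the half-site on both strands, occurs in JUND alone and in 1.85% of all promoters, and the element TGACATCA occurs in JUN alone and in 2.61%. The half-site of JUN lies 123 bases before its start, and FOSL2 and JUND hold further copies on the other strand. The TPA response element TGACTCA was found in the FOSL2 window only, after the start, and in 4.95% of all promoters. TATAAA was found in FOS, FOSB and JUNB at 33, 30 and 31 bases before the start and in 11.5% of all promoters, CCAAT in JUN, JUNB and JUND and in 34.6%, and GGGCGG in each of the 6 except JUNB and in 45% of all promoters. The CArG box, which serum response factor binds, was in none of the 6 windows and in 1.29% of all promoters. Sequence outside the windows was not searched, so a CArG box further from the start would have been missed in any member. Both strands were searched. A match describes letters and shows no binding, and the RefSeq start lies 280 bases inside the deposited JUN gene, 410 inside FOSL2 and 54 inside FOS.

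DHA replicate 2 stood apart from the other DHA libraries, with a chi-square per gene of 14.5 and 14.8 against them, where replicates 1 and 3 differed by 1.68 and control libraries by 3.3 to 8.84. All 7 genes were higher in DHA than in control cells, and the spread of the response was wide. In the fit FOS and FOSB rose more than 150-fold and JUN rose 63.3-fold. FOSL1 and JUNB rose there by 8.84-fold and 7.28-fold, and FOSL2 and JUND by 3.91-fold and 3.49-fold. With counts only scaled to a common library total, the ratio of the group means was 149 for FOS and 142 for FOSB. By the quasi-likelihood test of edgeR, adjusted by Benjamini-Hochberg over 15811 genes, 7 of 7 members passed an adjusted p of 0.05 as higher, against a background of 29.6% of all genes tested (59.6% in either direction, 30.1% lower). All 7 also passed with a log2 fold change of at least 1, as did 10.7% of all genes, but with the offset for GC content and exon length JUND was under this limit and 6 of 7 passed. In all 7 the CPM (counts scaled to a common library total) of the groups did not overlap with DHA higher, as in 27.0%. The members, and the gene lists described below, were chosen with earlier results of these data known. Their counts beside the background are thus descriptive and give no independent support. The members took 0.732% ± 0.0436 of all counts in DHA libraries and 0.0460% ± 0.00447 in control libraries (SD, n = 3 each). In such bulk RNA more cells expressing a gene and more transcript per cell cannot be told apart.

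**Figure D1:**
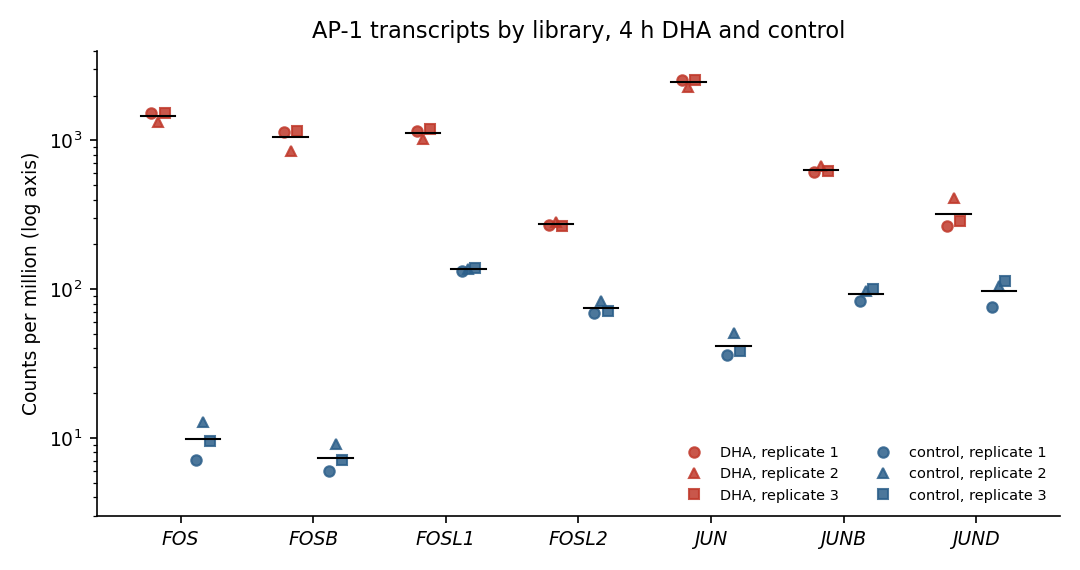
CPM of each AP-1 gene (log axis) in the 3 DHA and the 3 control libraries, with the replicate shown by the symbol and the group mean by a line. In every gene the DHA libraries sit above the control libraries, and the gap is widest for FOS and FOSB and narrowest for FOSL2 and JUND.

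Among the FOS proteins, FOS carries a strong activation domain and its transcript is normally lost within hours of a stimulus. It had 1536, 1321 and 1537 CPM in the DHA libraries of replicates 1, 2 and 3, against 7.13, 12.8 and 9.47 CPM in the control libraries. The DHA libraries lay far above the controls, and the relative spread was larger in the controls, where replicate 2 was 1.80 times replicate 1. The log2 fold change was 7.33 ± 0.18 (SE, adjusted p = 1.52e-10, edgeR), the 13th highest of 15811.

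FOSB encodes a full-length factor and, by alternative splicing, a shortened form that gene counts cannot separate. It had 1134, 843 and 1161 CPM in DHA, against 6.02, 9.05 and 7.07 CPM in control cells. The groups were far apart, with replicate 2 the lowest of the DHA libraries and the highest of the controls. FOSB was up by a log2 of 7.25 ± 0.18 (SE, adjusted p = 1.54e-10, edgeR), 15th of 15811. ERCC1 spans FOSB on the opposite strand, with 889, 1135 and 888 counts in DHA and 871, 734 and 747 in control libraries, beside FOSB counts of 16796, 14046 and 16586 in DHA and 114, 143 and 118 in control libraries. The sources used here do not give the strand setting of the counting, so reads of overlapping genes cannot be told apart.

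FOSL1 encodes FRA1, a FOS protein without the C-terminal activation domain that is abundant in many invasive carcinoma cells. It had 1164, 1014 and 1184 CPM in DHA, against 132, 137 and 138 CPM in control cells. The groups lay far apart, and the control values had the lowest spread of the 7 genes, with a coefficient of variation of 2.47%. FOSL1 had a log2 fold change of 3.14 ± 0.09 (SE, adjusted p = 3.6e-10, edgeR), 293rd of 15811.

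FOSL2 encodes FRA2, the closest relative of FRA1. It had 268, 284 and 266 CPM in DHA, against 69.5, 83.5 and 70.7 CPM in control cells. Its log2 fold change was 1.97 ± 0.08 (SE, adjusted p = 6.08e-09, edgeR), 640th of 15811, and its DHA values had a coefficient of variation of 3.5%, the lowest of the 7 genes in DHA. A short antisense gene, FLJ31356, overlaps its locus with at most 18 counts in any library.

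Among the JUN proteins, JUN is the strongest activator and the main substrate of the JUN N-terminal kinases. It had 2546, 2276 and 2555 CPM in DHA, the highest of the 7 genes, against 35.9, 50.5 and 38.5 CPM in control cells. The groups did not overlap, and replicate 2 was the lowest DHA and the highest control library. JUN rose by a log2 of 5.98 ± 0.14 (SE, adjusted p = 1.21e-10, edgeR), 45th of 15811.

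JUNB, a weaker activator that can oppose JUN in proliferation, had 616.6, 670.0 and 620.5 CPM in DHA, against 83.5, 97.2 and 99.4 CPM in control cells. Its groups lay well apart, with replicate 2 the highest in DHA. JUNB rose by a log2 of 2.86 ± 0.08 (SE, adjusted p = 4.37e-10, edgeR). HOOK2 spans JUNB on the opposite strand, with 1336, 1503 and 1320 counts in DHA and 1099, 904 and 934 in control libraries, beside JUNB counts of 9132, 11158 and 8868 in DHA and 1582, 1536 and 1658 in control libraries. In the controls the overlapping gene thus held counts of the same order as JUNB.

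JUND, which slows proliferation in several cell types, had 264, 409.5 and 285 CPM in DHA, against 76.0, 105 and 113 CPM in control cells. Its log2 fold change was 1.80 ± 0.16 (SE, adjusted p = 2.78e-06, edgeR), the smallest of the 7. The DHA library of replicate 2 stood apart, at 1.49 times the mean of the other 2, where 4534 genes of at least 50 CPM had a median ratio of 0.990 and a 5th to 95th percentile of 0.820 to 1.30. In the same library FOSB was at 0.735 times and FOS at 0.859 times the mean of the other 2, FOSL1 at 0.863, JUN at 0.893, FOSL2 at 1.06 and JUNB at 1.08. Over those genes the median ratio was 1.07 where transcript GC content was over 60% (717 genes) and 0.960 where it was under 45% (1651 genes). Without this library the log2 fold change of JUND was 1.63 ± 0.12 and that of FOSB 7.43 ± 0.10.

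Fold changes also differed by GC content. Among the same 4534 genes the median log2 fold change was 0.31 for a GC content over 60% and -0.39 for one under 45%. With an offset that removes a smooth trend on GC content and exon length from each library, JUND was 1.81-fold higher (log2 0.85 ± 0.11, SE), JUNB 4.24-fold (2.08 ± 0.09) and FOSL1 5.70-fold (2.51 ± 0.11). FOS was at 7.02 ± 0.19, FOSB at 7.04 ± 0.19, JUN at 5.62 ± 0.15 and FOSL2 at 1.90 ± 0.08. Each of these was also lower than without the offset, and all 7 genes passed the adjusted p. JUND was then no longer at a log2 fold change of 1 or more. The part of GC content in these responses was not tested beyond this offset.

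**Figure D2:**
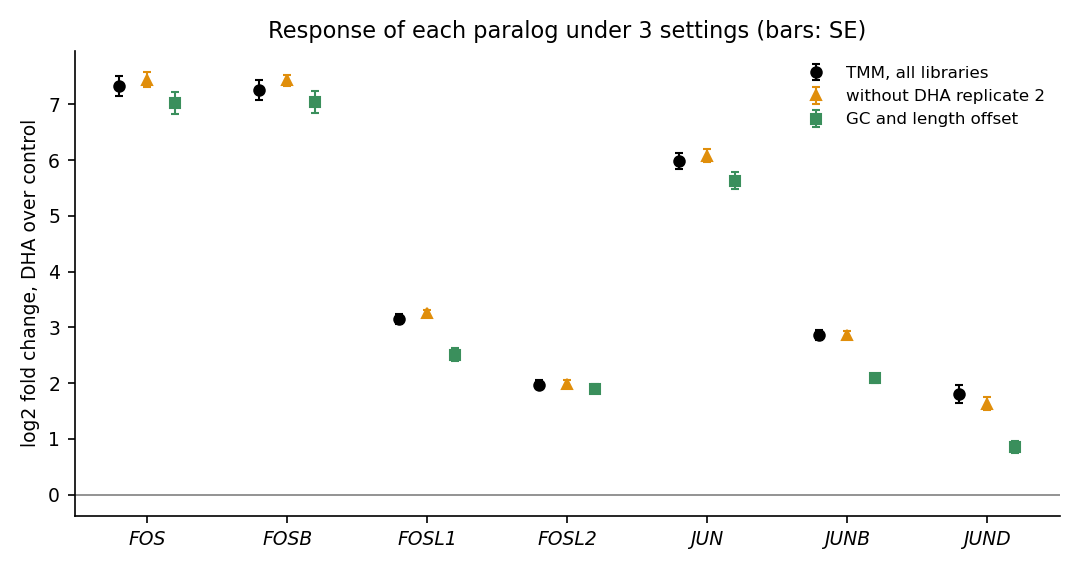
log2 fold change of DHA over control with its standard error for each gene, in the TMM fit with all 6 libraries, in the fit that leaves out DHA replicate 2, and in the fit with the GC and length offset. FOS, FOSB and JUN lie above 5.6 in all 3 settings. Every gene is lower with the offset than in the TMM fit, and FOSL1, JUNB and JUND drop the most.

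The responses of the paralogs were compared as log2 ratios of 2 members within each library, which need no scaling between libraries. Of 21 pairs, 18 had ratios that did not overlap between DHA and control libraries, beside 63.1% of all pairs of tested genes. With 3 libraries per group the exact 2-sided permutation test cannot go below 0.1, the value of these 18 pairs (0.117 after Benjamini-Hochberg adjustment over the 21), so no difference can pass 0.05. The ratio of FOS to FOSB did not separate the groups, at a log2 of 0.50 ± 0.13 in DHA and 0.39 ± 0.13 in control libraries (SD, n = 3 each). FOSL1 over JUNB was at 0.82 ± 0.19 in DHA and 0.54 ± 0.10 in control libraries, and FOSL2 over JUND at -0.20 ± 0.29 in DHA and -0.38 ± 0.27 in control libraries. The groups overlapped in both pairs, and these 3 are all the pairs that did.

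By the overlap of these ratios the responses fell into 4 tiers, FOS with FOSB, then JUN, then FOSL1 with JUNB, then FOSL2 with JUND. FOS gained on JUN by 1.36 log2 units, with a log2 ratio of -0.75 ± 0.03 in DHA libraries and -2.11 ± 0.19 in control libraries. JUN gained on FOSL1 by 2.85, with a log2 ratio of FOSL1 over JUN of -1.13 ± 0.03 in DHA and 1.72 ± 0.24 in control libraries. JUNB over JUND was 1.02 ± 0.27 in DHA and -0.05 ± 0.17 in control libraries, and FOSL1 over FOSL2 was 2.04 ± 0.17 in DHA and 0.87 ± 0.13 in control libraries. With the GC and length offset the lower tiers were no longer the same. FOSL2 over JUND then differed by 1.04 with no overlap between groups, FOSL1 over JUNB by 0.42 with no overlap, and FOSL2 over JUNB by -0.18 with overlap, in place of -0.90 without the offset. The order of these 4 genes by fold change was the same with and without the offset, while the sizes and overlaps of their differences changed.

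Levels can be compared between genes only per length of exons, here CPM per kilobase of merged exons (CPM per kb). In DHA cells the order was JUN at 695 ± 44.7, FOSL1 at 594 ± 49.5, FOS at 452 ± 38.5, JUNB at 349 ± 16.4, FOSB at 188 ± 31.7, JUND at 172 ± 42.1 and FOSL2 at 38.1 ± 1.33 CPM per kb (SD, n = 3). The ranges of FOSB and JUND overlapped, and those of other neighbours did not. In control cells the order was FOSL1 at 71.9 ± 1.78, JUND at 52.5 ± 10.3, JUNB at 51.3 ± 4.72, JUN at 11.8 ± 2.20, FOSL2 at 10.4 ± 1.08, FOS at 3.03 ± 0.887 and FOSB at 1.33 ± 0.277 CPM per kb. The ranges of JUND and JUNB overlapped, as did those of JUN and FOSL2. With the longest transcript as length FOS stood above FOSL1 in DHA cells, and the control order did not change.

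Set among 19451 coding genes by CPM per kb, JUN ranked 30th in DHA and 3804th in control cells, FOS 51st and 8466th, and FOSB 132nd and 10174th. FOSL1 ranked 38th in DHA and 382nd in control cells, JUNB 68th and 628th, JUND 141st and 604th, and FOSL2 938th and 4196th. In DHA cells all but FOSL2 ranked among the top 141 coding genes, and in control cells none did.

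The 7 genes summed to 2488 ± 106 CPM per kb in DHA cells and 202 ± 19.5 in control cells (SD, n = 3 each), a 12.3-fold difference. In DHA cells JUN made up 27.9% ± 0.651 of this sum, FOSL1 23.8% ± 1.0, FOS 18.2% ± 0.811, JUNB 14.1% ± 1.28, FOSB 7.54% ± 0.977, JUND 6.95% ± 2.03 and FOSL2 1.53% ± 0.122. In control cells FOSL1 made up 35.7% ± 2.73, JUND 25.8% ± 2.86, JUNB 25.4% ± 0.376, JUN 5.80% ± 0.792, FOSL2 5.16% ± 0.455, FOS 1.48% ± 0.328 and FOSB 0.654% ± 0.0927. FOSL1, JUND and JUNB, which together held most of the control transcripts, thus took smaller shares in DHA although each of them rose. The 4 FOS genes together held 52.6%, 48.0% and 52.6% of the sum in DHA libraries, against 46.1%, 42.1% and 40.9% in control libraries. These shares did not overlap, and DHA replicate 2 lay closest to the controls. With no length correction they did overlap, at 54.5%, 50.8% and 54.5% in DHA libraries and 52.3%, 49.0% and 47.3% in control libraries. With the longest transcript as length the FOS genes held 57.8% in DHA and 46.3% in control cells.

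**Figure D3:**
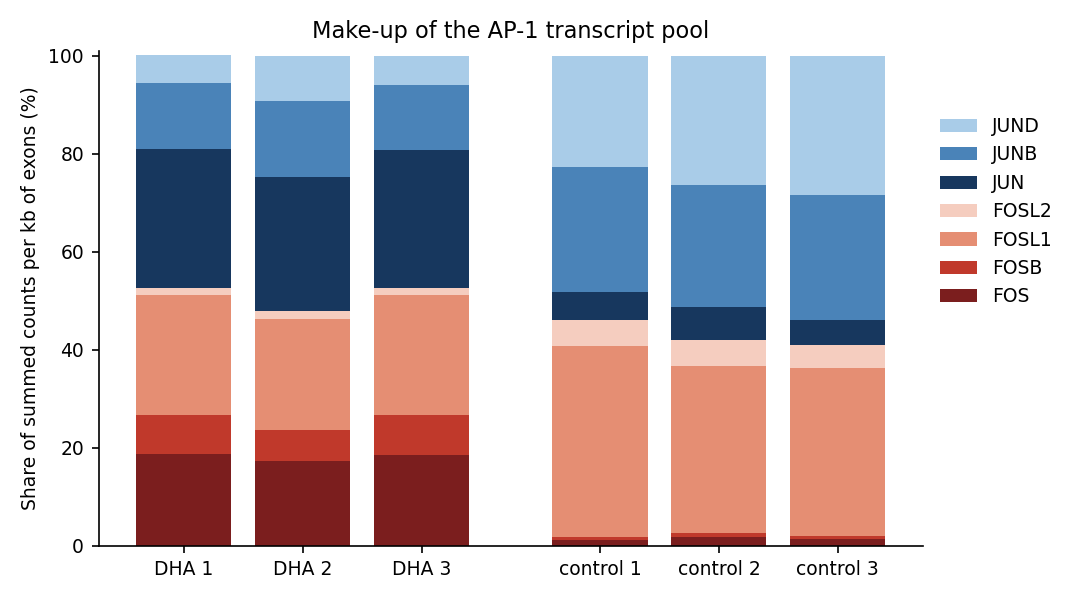
Share of each gene in the summed counts per kilobase of exons of the 7 AP-1 genes, for each DHA library and each control library. JUN, FOS and FOSB fill more than 50% of the DHA bars and under 10% of the control bars, where FOSL1, JUNB and JUND dominate.

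Factors that pair with AP-1 proteins mostly rose. Of 14 such basic leucine zipper genes 12 were tested in the same edgeR fit. Of these 9 rose, 1 fell and 2 did not pass, and their median log2 fold change was 0.64, beside 0.011 over all genes tested, of which 29.6% rose and 30.1% fell. ATF3, a stress-induced JUN partner, had 907 ± 75.4 CPM in DHA and 35.0 ± 14.8 CPM in control cells (SD, n = 3), a log2 fold change of 4.80 ± 0.23 (SE). The small MAF protein MAFF had 290 ± 46.1 CPM in DHA and 20.7 ± 2.19 CPM in control cells (log2 3.91 ± 0.12). CREB5 rose by 1.91 ± 0.22, and ATF2, which pairs with JUN, fell by 0.58 ± 0.10 on the log2 scale. BATF and MAF were at or near 0 and were not tested.

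Transcripts of the MAP kinases, which switch on FOS and JUN, passed at a share near that of all genes. Of 25 genes of the JNK, p38, ERK and ERK5 cascades 23 were tested, of which 4 rose, 8 fell and 11 did not pass (median log2 fold change -0.086), beside 59.6% of all genes that passed in either direction. MAP2K3, a kinase that activates p38, had 282 ± 38.3 CPM in DHA and 99.7 ± 2.83 CPM in control cells (SD, n = 3), a log2 fold change of 1.59 ± 0.09 (SE). The p38 gene MAPK11 rose by 0.96 ± 0.12, or by 0.34 with the GC and length offset. RPS6KA3, which encodes a kinase downstream of ERK, fell by 0.74 ± 0.07. Kinase activity was not measured.

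Among factors that act at the FOS and JUN promoters some rose and others fell. Of 15 genes tested 4 rose, 8 fell and 3 did not pass, at a median log2 fold change of -0.30. The background was 29.6% higher and 30.1% lower, so the number that rose was near it and the number that fell was above it. SRF, the serum response factor, had 391.8 ± 16.95 CPM in DHA and 128 ± 6.05 CPM in control cells (SD, n = 3), a log2 fold change of 1.71 ± 0.07 (SE). Unlike SRF, its ternary complex partners were lower in DHA, as ELK4 fell by 1.12 ± 0.08 and ELK3 fell by 0.81 ± 0.08. The SRF coactivator MKL2, also named MRTFB, fell by 1.44 ± 0.08, while the related coactivator MKL1 did not pass (0.20 ± 0.09).

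Of 8 genes for turnover or inhibition of JUN and FOS proteins, 2 rose, 2 fell and 4 did not pass. The share that passed does not exceed the 59.6% over all genes. ITCH, a ubiquitin ligase for JUN and JUNB, fell by 0.66 ± 0.06 and the deubiquitinase USP28 fell by 0.60 ± 0.10. FBXW7, a ubiquitin ligase subunit for JUN, rose by 0.26 ± 0.09 and the corepressor NCOR1 by 0.20 ± 0.07, and neither passed with DESeq2, limma, unfiltered genes or library totals alone. Of 8 proteins that bind AU-rich elements 4 rose, 2 fell and 2 did not pass, beside 29.6% of all genes higher and 30.1% lower. ZFP36, or tristetraprolin, which destabilises such transcripts and is itself an immediate early gene, had 652 ± 107 CPM in DHA and 52.8 ± 5.66 CPM in control cells (SD, n = 3), a log2 fold change of 3.73 ± 0.14 (SE). ZFP36L2 rose by 0.63 ± 0.10 and ZFP36L1 by 0.41 ± 0.10, while ELAVL1, which stabilises AU-rich transcripts, fell by 0.52 ± 0.09 and KHSRP fell by 0.31 ± 0.08.

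Among genes known as AP-1 targets, most of those with enough counts rose. Of 24 genes 13 were tested, of which 9 rose, 2 fell and 2 did not pass (median log2 fold change 0.93), where 29.6% of all genes tested rose and 30.1% fell. HBEGF, an EGF receptor ligand, had 139 ± 12.5 CPM in DHA and 13.5 ± 1.88 CPM in control cells (SD, n = 3), a log2 fold change of 3.46 ± 0.11 (SE). HMOX1 rose by 3.24 ± 0.10, the urokinase receptor gene PLAUR by 1.79 ± 0.12, and the chemokine gene CXCL8 by 3.78 ± 0.23, or 2.77 on the log2(CPM + 1) scale. CCND1, which encodes cyclin D1, had 298 ± 8.30 CPM in DHA and 533 ± 19.6 CPM in control cells, and CD44, a hyaluronan receptor, had 469 ± 32.4 CPM in DHA and 715 ± 43.4 CPM in control cells, so that CCND1 fell by 0.74 ± 0.07 and CD44 fell by 0.51 ± 0.08 on the log2 scale (SE). The matrix metalloproteinase genes MMP1, MMP3, MMP7, MMP9, MMP10 and MMP13, classical AP-1 targets, had means of at most 0.212 CPM in either group and too few counts to be tested. Most of these genes answer to other factors too, and AP-1 activity was not measured.

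**Figure D4:**
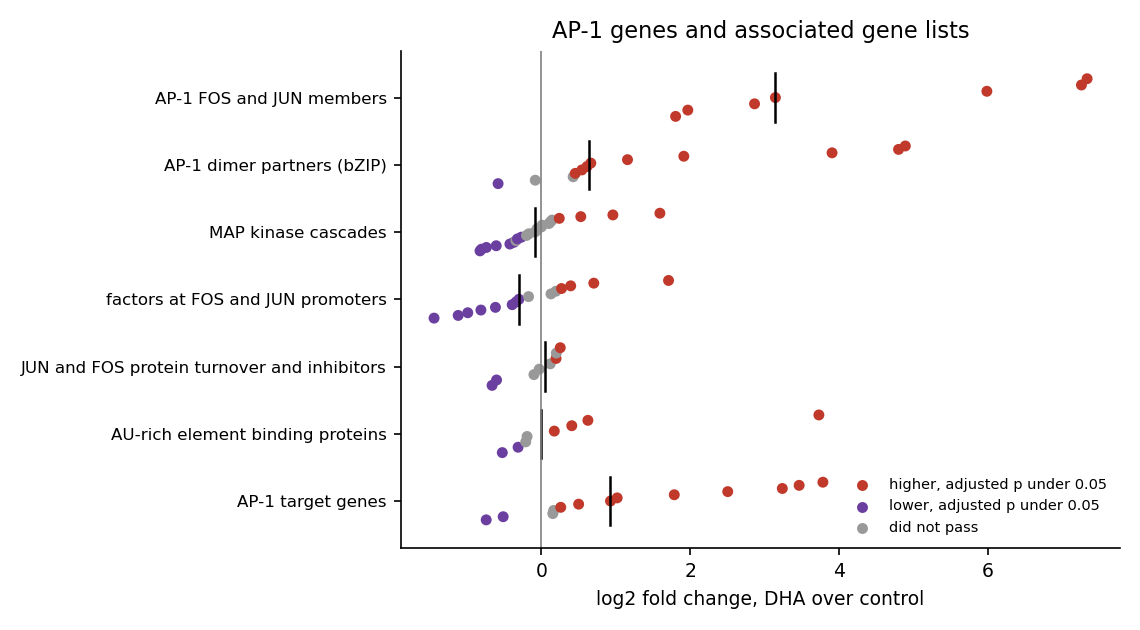
log2 fold change of DHA over control for the tested genes of each list, with 1 point per gene coloured by its call and a line at the median of the list. All 7 AP-1 genes lie above 1.8, whereas the MAP kinase genes and the factors at the FOS and JUN promoters lie on both sides of 0.

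The genes whose pattern was closest to each member were ranked by the root mean square difference over the 6 libraries in log2(CPM + 1) relative to the control mean, among 10592 coding genes with a mean of at least 5 CPM. For FOS and FOSB the closest were EGR2, at 0.404 and 0.365 log2 units, then NR4A3 and CTGF, all 3 of them rising less than either member. For JUN they were CTGF at 0.16, NR4A3 at 0.23 and NR4A1 at 0.23. FOSL1 lay closest to FAM46B at 0.09, LSMEM1 at 0.10 and SNAI1 at 0.10, and JUNB to TUFT1 at 0.06, ZC3H12A at 0.11 and CSRNP1 at 0.15. FOSL2 lay closest to BTG1 at 0.06, KLF6 at 0.09 and IFRD1 at 0.09, and JUND to FAM43A at 0.15, PARD6B at 0.19 and RELB at 0.20. Within 0.25 log2 units there were 79 genes for FOSL2, 21 for FOSL1, 20 for JUNB, 19 for JUND, 3 for JUN and 0 for FOS and FOSB. With 2 groups of libraries this measure sorts genes mainly by the size of their change.

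In the whole series 4674 genes were higher and 4757 lower in DHA, a split of 3521 and 5502 with the GC and length offset and of 3400 and 5469 with limma on log2(CPM + 1). Library totals ran from 14291726 to 18938456 counts. Of 10 colorectal epithelial markers 8 had a mean over 1 CPM, among them KRT8, KRT18, EPCAM and CDX2, with CDX1 at 0. The summed level of the 10 ran from 5540 to 5706 CPM in DHA and from 4299 to 4711 CPM in control libraries. Of the 8 tested, KRT8, KRT18 and KRT19 rose, CDH1 fell, and 4, EPCAM and CDX2 among them, did not pass. The 11 markers of blood, fibroblast and endothelial cells summed to between 75.7 and 98.2 CPM in DHA and between 22.4 and 31.9 CPM in control libraries, mostly COL1A1 (78.8 CPM in DHA and 25.1 CPM in control cells), with PTPRC, COL1A2 and DCN at 0. The part of these markers in the AP-1 results was not tested.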

How the data were processed

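The authors deposited raw read counts per gene. Per the submitters' processing notes HISAT2 and DESeq2 1.18.1 were used; the sources used here do not give the counter, its strand setting, the annotation or the build. GENCODE release 29 holds 40715 of the deposited identifiers, 97.0% of them at identical coordinates and strand. Exon lengths and GC content come from that release. Genes sharing a name had identical counts and were kept as 1 row, and 32 lines without a gene were left out. A deposited table of log2 fold changes and p-values (adjusted) from the authors' own comparison lists 2969 genes; in the authors' deposited table FOS stands at 7.31 and JUND at 1.79.

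The count model was edgeR 4.0.16 under R 4.3.3 (filterByExpr, TMM, glmQLFit and glmQLFTest, Benjamini-Hochberg over 15811 genes). Python 3.11.15 handled tables and figures. Alternatives used DESeq2 1.42.0 and limma 3.58.1, and the fit was tested on simulated data. SEs come from the F statistic. The common biological coefficient of variation was 0.0902. Pairs of libraries differed by a chi-square per gene from 1.68 (DHA replicates 1 and 3) to 14.8 within groups and from 109 to 137 between groups, so none was taken for a copy. Library totals give 3 counts between 0.158 and 0.210 CPM.

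The members and gene lists were chosen with earlier results of these data known, and lists are described by counts and medians with no list test. Named genes were the members, up to 4 members of each list with the smallest adjusted p with those passing in the rarer direction where there were at most 3, and the 3 closest genes of each member. A few genes named by this rule are left out here, and some named here, such as MKL1, fall outside it. Promoter sequences are RefSeq's.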

Additional observations from a re-analysis of the deposited data

How the results depend on the processing

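All 7 AP-1 genes passed the adjusted p as higher under every alternative run (with a log2 fold change of at least 1 added, 6 of 7 with the GC and length offset, which JUND missed): RLE factors, DESeq2, library totals alone, unfiltered genes, 1 CPM in 3 libraries, limma at both pseudocounts, the replicate block, the GC and length offset, and leaving out each library. The replicate numbers did not pair the libraries, with correlations of deviations of 0.021, -0.084 and -0.054 for same-numbered libraries; with the replicate block 4361 genes were higher and 4546 lower, against 4674 and 4757, and FOS stood at 7.34 and JUND at 1.80. Of the lists, the genes for turnover or inhibition of JUN and FOS gave 0 higher in place of 2 with DESeq2, limma, no low-count filter and library totals alone. They gave 1 higher with the replicate block, and 0 to 2 when libraries were left out one at a time. With the GC and length offset they gave 4 lower in place of 2. The AU-rich element binding genes gave 4 lower in place of 2 with library totals alone, no low-count filter and limma. KRT19, an epithelial marker, was at -0.065 with the GC and length offset, in place of 0.56, and VWF, which did not pass at 0.21, ranged from -0.11 to 0.73 when libraries were left out, being negative without DHA replicate 2 (-0.11) and control replicate 3 (-0.051). The share of the FOS genes was 57.8% in DHA and 46.3% in control cells with the longest transcript as length, and 49.6% in control cells with no length correction. The order of levels in DHA changed for 2 members with the longest transcript and for 4 with no length correction, and for 0 to 2 when libraries were left out. The order in control cells changed for 2 members with no length correction, and for 0 to 2 when libraries were left out. Between paralogs, all 21 differences stayed within the spread between libraries with counts + 1 and when libraries were left out. Paired differences have the same mean by arithmetic, so pairing could not move them. With the GC and length offset, an alternative for the ratios chosen after seeing the data, 14 moved by more than that spread. The cause of these shifts was not tested. Depth did not limit the members, the lowest of which had 114 counts, but 11 AP-1 targets had too few counts to be tested.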
